A study of Danio rerio with 22 samples.

Results

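The germ cells of 2 zebrafish hybrids were compared at 12 days post-fertilization (dpf) in the 8 libraries made by Smart-seq, 4 W-hybrid and 4 Z-hybrid, out of 22 libraries in the series. The W-hybrid larvae came from Nadia mothers of WW genotype crossed with Tg(ziwi:GFP) fish of the Tupfel long-fin strain, and the Z-hybrid larvae from Nadia fathers of ZZ genotype crossed with Tg(ziwi:GFP) mothers. All 8 libraries therefore hold Nadia/Tupfel long-fin hybrid cells that carry the same transgene, in which the ziwi promoter, active in germ cells, drives GFP. The GFP-positive cells were sorted from gonads pooled over many larvae, so that each library is a batch of cells from several animals, and p-values measure the spread between such batches. The Nadia parent was the mother of one hybrid and the father of the other, so that the W locus and the direction of the cross cannot be told apart, and W-hybrid fish are presumptive females that do not all become female. Germ cell libraries of 10 dpf, also by Smart-seq (3 W-hybrid and 3 Z-hybrid), and the Quartz-seq libraries of 12 and 14 dpf are used below only to set the same genes beside.

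In Nadia zebrafish sex follows a ZZ/ZW system: ZZ fish become males, whereas fish with a W chromosome can become females. The larval gonad is at first the same in both sexes, and its germ cells divide as gonocytes before some of them enter meiosis and begin to form oocytes, also in fish that later become males. Entry into meiosis brings a known program: cohesins and axis proteins fold the chromosomes into loops, DNA breaks are made and repaired on the homologous chromosome, the synaptonemal complex joins the homologues, and telomeres attach to the nuclear envelope. A germ cell population at this age can thus differ both between the hybrids and in how far its cells have gone into meiosis.

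The 8 libraries held 13556592 to 17700491 counts in the W-hybrid and 15808799 to 17753192 counts in the Z-hybrid, and 18761 to 20298 genes with at least 10 counts each. Germ cell genes were high in every library and nearly absent from the 2 trunk libraries: DDX4, the Vasa helicase, had 845 to 1636 TPM (transcript abundance scaled by gene length and library total) in the 8 libraries and at most 0.09 TPM in trunk, and DAZL, a germ cell RNA-binding protein, had 738 to 1182 TPM and at most 0.21 TPM. The list of 15 gonadal somatic genes took 0.00536 to 0.00769% of the counts in the W-hybrid and 0.00586 to 0.00737% in the Z-hybrid. By correlation over all genes, the libraries of a hybrid were hardly more alike than those of different hybrids. The correlation of log2 CPM across genes was 0.947 to 0.975 between W-hybrid libraries, 0.946 to 0.971 between Z-hybrid libraries and 0.916 to 0.972 between hybrids. The medians were 0.950, 0.956 and 0.945. The first principal component, the axis of largest variance (30.8%), still ordered the hybrids. On it the W-hybrid libraries lay at 4.7 or below and the Z-hybrid libraries at 10.7 or above. The gap was small beside the axis, which ran from -72.6 in W-hybrid replicate 3 to 76.8 in Z-hybrid replicate 2. Bulk libraries do not tell fewer cells of a type from less RNA per cell.

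Few genes separated the hybrids. Of 20066 genes tested with edgeR's quasi-likelihood test, 16 passed as higher (0.0797% of those tested) and 13 as lower (0.0648%) in the W-hybrid, where a call needs a Benjamini-Hochberg adjusted p under 0.05, a change of at least 1.5-fold and a mean above 5 TPM in the higher hybrid. The unadjusted p was under 0.05 for 995 genes higher in the W-hybrid (4.96%) and 917 lower (4.57%). The median log2 fold change over all genes tested was 0.0, and 49.6% of genes were above 0. No member of the meiosis lists was called, and 2 of the called genes belonged to any list examined.

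**Figure D1:**
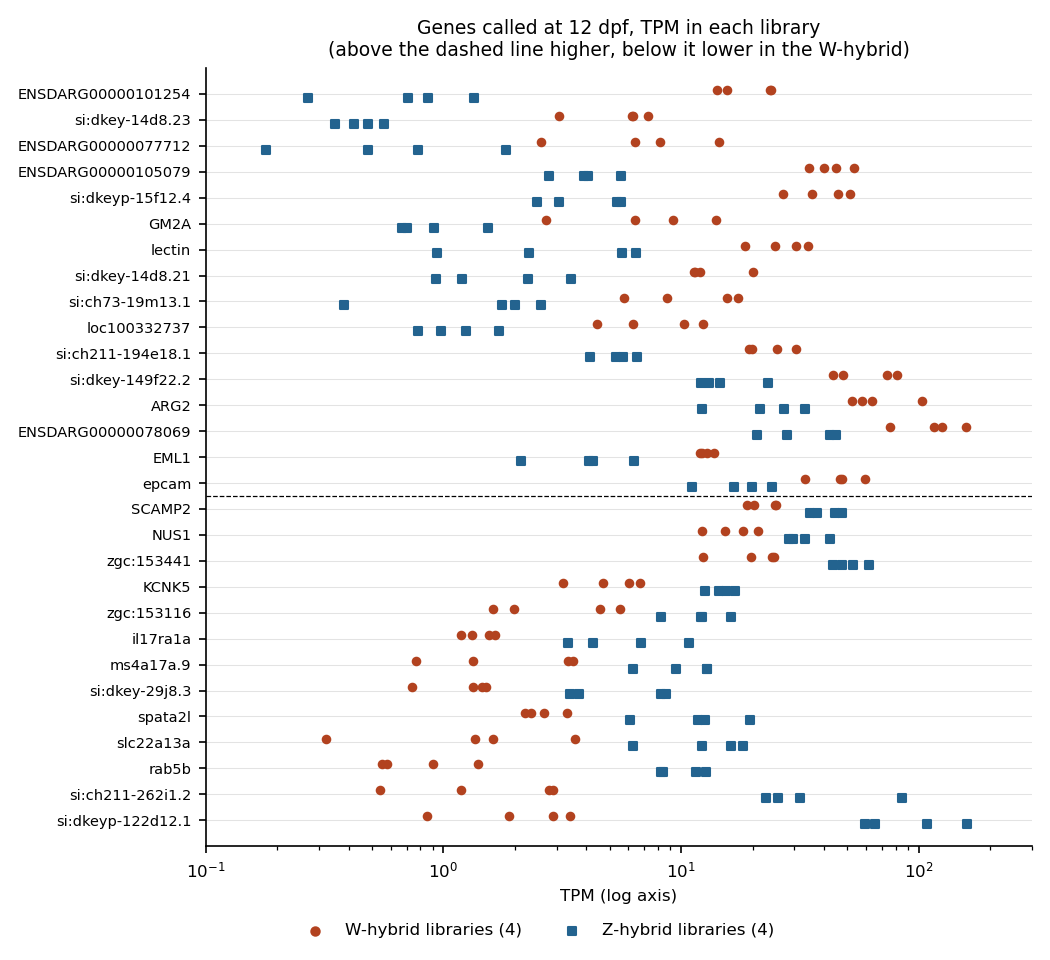
TPM of the 29 called genes in each 12-dpf Smart-seq library, on a log axis, with W-hybrid libraries as circles and Z-hybrid libraries as squares, ordered by log2 fold change. The 4 libraries of one hybrid do not overlap with the 4 of the other at any of the 29 genes, which the call itself favours.

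Over all 20066 genes, every W-hybrid library lay above every Z-hybrid library in TPM for 3.08% and below for 1.5%, and for all 29 called genes the hybrids did not overlap. The largest changes were near-complete differences in both directions. The gene si:dkeyp-122d12.1, for which no role is given here, had 3.40, 0.85, 2.88 and 1.89 TPM in the W-hybrid libraries, against 59.7, 65.7, 108.3 and 160.0 TPM in the Z-hybrid libraries. It was thus at a few TPM in every W-hybrid library and above 50 TPM in every Z-hybrid library, 45.2-fold lower in the W-hybrid (log2 fold change -5.50 ± 0.425 SE, adjusted p 2.62e-06). The long non-coding RNA si:ch211-262i1.2 had 2.77, 2.89, 0.54 and 1.18 TPM in the W-hybrid, against 31.6, 25.5, 22.8 and 85.2 TPM in the Z-hybrid. Its log2 fold change was -4.48 ± 0.530 (adjusted p 3.78e-04), and the highest Z-hybrid value, of replicate 4, stood well apart from the other 3. The gene rab5b, for a small GTPase of early endosomes, had 0.55, 0.58, 1.40 and 0.90 TPM in the W-hybrid, against 12.7, 11.6, 8.27 and 8.37 TPM in the Z-hybrid (log2 fold change -3.16 ± 0.379, adjusted p 3.78e-04).

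In the other direction, ENSDARG00000101254 had 15.6, 23.97, 14.1 and 23.6 TPM in the W-hybrid, against 0.27, 0.71, 0.86 and 1.34 TPM in the Z-hybrid, where it had 2 to 9 counts a library. It was 23.0-fold higher in the W-hybrid (log2 fold change 4.52 ± 0.471, adjusted p 7.09e-05). ENSDARG00000105079, whose symbol places it on the same sequenced clone, had 34.7, 53.5, 45.0 and 40.2 TPM in the W-hybrid, against 5.58, 4.07, 3.92 and 2.77 TPM in the Z-hybrid (log2 fold change 3.33 ± 0.344, adjusted p 7.09e-05). Clone-based symbols also joined si:dkey-14d8.23 and si:dkey-14d8.21, which were higher in the W-hybrid by log2 fold changes of 3.54 and 2.69. Genes of a clone can be copies of each other, and how the authors' counting split shared reads among them was not examined. The gene si:dkeyp-15f12.4 had 45.6, 35.8, 26.8 and 51.6 TPM in the W-hybrid, against 5.61, 3.07, 2.48 and 5.37 TPM in the Z-hybrid (log2 fold change 3.23 ± 0.327, adjusted p 7.09e-05). The gene named lectin, by its name for a carbohydrate-binding protein, had 18.5, 30.4, 34.3 and 24.9 TPM in the W-hybrid, against 2.30, 0.94, 6.45 and 5.67 TPM in the Z-hybrid (log2 fold change 2.76 ± 0.460, adjusted p 0.0118). The gene si:dkey-149f22.2 had 43.8, 81.3, 73.8 and 48.2 TPM in the W-hybrid, against 23.1, 12.2, 13.2 and 14.6 TPM in the Z-hybrid (log2 fold change 1.92 ± 0.257, adjusted p 0.00171).

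Several called genes encode a protein whose role is known in mammals. ARG2, the mitochondrial arginase, had 52.2, 103.3, 57.9 and 63.5 TPM in the W-hybrid, against 21.5, 12.2, 27.3 and 33.2 TPM in the Z-hybrid (2.85-fold higher, log2 fold change 1.51 ± 0.275, adjusted p 0.0242). GM2A, a lysosomal cofactor of ganglioside breakdown, averaged 8.09 ± 4.77 TPM in W-hybrid libraries and 0.955 ± 0.404 TPM in Z-hybrid libraries (SD, n = 4 each; adjusted p 0.0146 from edgeR). EML1, a microtubule-associated protein, was even among the W-hybrid libraries, at 12.8, 12.0, 13.8 and 12.3 TPM in the W-hybrid, against 6.34, 2.12, 4.10 and 4.26 TPM in the Z-hybrid (log2 fold change 1.41 ± 0.269, adjusted p 0.0331). NUS1, a subunit of the enzyme that makes the dolichol chain for protein glycosylation, had 21.1, 15.4, 12.3 and 18.3 TPM in the W-hybrid, against 42.5, 33.4, 29.7 and 28.4 TPM in the Z-hybrid (log2 fold change -1.04 ± 0.203, adjusted p 0.0410). SCAMP2, a membrane protein of secretory vesicles, averaged 22.3 ± 3.16 TPM in W-hybrid libraries and 41.0 ± 5.87 TPM in Z-hybrid libraries (SD, n = 4 each; adjusted p 0.0496 from edgeR), and was called in 0 of the 8 fits that leave out one library.

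The genes lower in the W-hybrid included a channel, a receptor and a transporter gene, 1 of each. KCNK5, a potassium leak channel, had 6.74, 6.06, 3.18 and 4.69 TPM in the W-hybrid, against 16.9, 12.6, 15.4 and 14.4 TPM in the Z-hybrid (log2 fold change -1.58 ± 0.268, adjusted p 0.0125). The interleukin-17 receptor gene il17ra1a had 1.65, 1.18, 1.32 and 1.55 TPM in the W-hybrid, against 6.77, 3.35, 4.26 and 10.8 TPM in the Z-hybrid (log2 fold change -2.11 ± 0.337, adjusted p 0.00775). The transporter gene slc22a13a had 3.59, 1.61, 1.36 and 0.32 TPM in the W-hybrid, against 6.27, 16.2, 18.3 and 12.3 TPM in the Z-hybrid (log2 fold change -3.06 ± 0.529, adjusted p 0.0235). The gene spata2l, a relative of SPATA2, had 3.32, 2.21, 2.34 and 2.65 TPM in the W-hybrid, against 11.7, 19.6, 6.10 and 12.6 TPM in the Z-hybrid (log2 fold change -2.32 ± 0.328, adjusted p 0.00300). For each of these 4 genes the lowest Z-hybrid library was above the highest W-hybrid library. The membrane protein gene ms4a17a.9 (log2 fold change -2.13, adjusted p 0.0365) and zgc:153116 (-1.92, adjusted p 0.0463) lie 5 entries apart in the RefSeq gene order of assembly GRCz12tu, where 18 of the 29 called genes could be found by name.

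Of the remaining genes higher in the W-hybrid, ENSDARG00000077712 had 2.58 to 14.5 TPM in W-hybrid libraries, against 0.18 to 1.84 TPM in Z-hybrid libraries (3.54 ± 0.598 on the log2 scale, adjusted p 0.0125). The gene loc100332737 had 4.41 to 12.3 TPM in the W-hybrid, against 0.78 to 1.71 TPM in the Z-hybrid (log2 fold change 2.62 ± 0.390, adjusted p 0.00458), and si:ch73-19m13.1 had 5.78 to 17.4 TPM, against 0.38 to 2.57 TPM (2.68 ± 0.460, adjusted p 0.0153). ENSDARG00000097122 had 19.4 to 30.5 TPM in the W-hybrid, against 4.12 to 6.53 TPM in the Z-hybrid (log2 fold change 2.1 ± 0.332, adjusted p 0.00759). Of those lower in the W-hybrid, zgc:153441 had 12.4 to 24.6 TPM, against 43.4 to 61.7 TPM in the Z-hybrid (log2 fold change -1.41 ± 0.232, adjusted p 0.0101), and si:dkey-29j8.3 had 0.74 to 1.51 TPM, against 3.42 to 8.62 TPM in the Z-hybrid (-2.32 ± 0.408, adjusted p 0.0172). No role is given here for these 6 genes, which the files name only by an ID, a clone or a locus.

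The call of epcam, for the cell adhesion molecule of epithelia, stood beside a tissue marker list. It had 46.8, 59.4, 33.3 and 47.7 TPM in the W-hybrid, against 11.2, 19.8, 16.7 and 24.2 TPM in the Z-hybrid (log2 fold change 1.35 ± 0.271, adjusted p 0.0496), and was high in trunk at 659 and 1991 TPM. It was the 1 gene called of the 15 in the epidermis list, in which 9 genes were above 0 and 6 below with a median log2 fold change of 0.05, as against 0.0 over all genes. The whole epidermis list, epcam included, had none of its markers at 0 in all 8 libraries. It took 0.0137 to 0.0163% of the counts in the W-hybrid and 0.00904 to 0.0135% in the Z-hybrid, compared with 3.41 to 9.49% in trunk. These shares count epcam itself, so they are not separate from its call. The list's mean log2(TPM + 1) was 2.36 to 2.57 in the W-hybrid and 1.89 to 2.79 in the Z-hybrid. The part of epidermal RNA in the result was not tested. Trunk was also high for ms4a17a.9, at 131 and 243 TPM.

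How firmly the 29 calls stand differed from gene to gene. DESeq2 called all 16 higher and all 13 lower genes, among 60 higher and 40 lower in all. With each library left out in turn, 8 of the 16 higher and 4 of the 13 lower genes were called in all 8 fits. These were ENSDARG00000101254, ENSDARG00000105079, si:dkey-14d8.23, si:dkeyp-15f12.4, lectin, loc100332737, ENSDARG00000097122 and si:dkey-149f22.2 among the higher, and spata2l, rab5b, si:ch211-262i1.2 and si:dkeyp-122d12.1 among the lower. The calls of ARG2, EML1 and epcam were kept in 3, 3 and 2 of these 8 fits, and those of NUS1, zgc:153116 and ms4a17a.9 in 2, 1 and 3. SCAMP2 was lost in every such fit (adjusted p 0.0608 to 0.202). KCNK5 was lost without W-hybrid replicate 4 or Z-hybrid replicate 3, GM2A without W-hybrid replicate 3 or Z-hybrid replicate 3 or 4, and slc22a13a without W-hybrid replicate 2 or 3 or Z-hybrid replicate 2 or 3, with adjusted p up to 0.0776, 0.0803 and 0.218. The gene il17ra1a was lost without Z-hybrid replicate 4, where the mean of the Z-hybrid fell under 5 TPM. Its adjusted p stayed under 0.05 in all 8 fits, the highest being 0.0455 without W-hybrid replicate 2. All 29 log2 fold changes kept their sign in each of the 8 fits. The total ranged from 11 (without Z-hybrid replicate 3) to 28 (without W-hybrid replicate 1) genes higher, and from 7 (without Z-hybrid replicate 3) to 20 (without W-hybrid replicate 1) lower.

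The same genes were read in the 10-dpf libraries, which share no library with the 12-dpf comparison. By the same rule, calls at 10 dpf covered 615 of 20080 genes as higher (3.06%) and 819 as lower (4.08%) in W-hybrid cells. Of the 16 genes higher at 12 dpf, 16 had the same direction and 13 were called the same way at 10 dpf, and of the 13 lower, 12 had the same direction and 8 were called. For si:dkeyp-122d12.1 the 10-dpf values were 1.97, 1.72 and 0.41 TPM in the W-hybrid, against 39.8, 39.1 and 39.0 TPM in the Z-hybrid (log2 fold change -4.62 ± 0.425, adjusted p 6.17e-06). For ENSDARG00000101254 they were 18.4, 19.6 and 18.7 TPM in the W-hybrid, against 1.79, 1.81 and 1.05 TPM in the Z-hybrid (log2 fold change 3.79 ± 0.368, adjusted p 1.21e-05). SCAMP2 was the 1 gene of 29 with the other direction at 10 dpf, where its log2 fold change was 0.07 ± 0.153 (adjusted p 0.816).

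The Quartz-seq libraries, 2 W-hybrid and 1 Z-hybrid at each age, allow no test. At 12 dpf the Z-hybrid library had 16603 genes with at least 10 counts, against 19132 and 19993 in the W-hybrid libraries. At 14 dpf these numbers were 16623, against 18968 and 20386. Fewer detected genes in the Z-hybrid library favour W-hybrid values above it for genes of low level. The share of all genes in each direction was not counted, so the counts that follow have no background beside them. They are therefore given without a reading for either set of genes. Of the 16 higher genes, both W-hybrid libraries were above the Z-hybrid library for 12 and below it for 2 at 12 dpf, and above it for 10 and below it for 1 at 14 dpf. Of the 13 lower genes, both were below it for 5 and above it for 6 at 12 dpf, and below it for 7 and above it for 5 at 14 dpf. Among these rab5b, lower in the W-hybrid by Smart-seq, had 12.3 and 13.2 TPM in the W-hybrid libraries of 12 dpf, against 2.08 TPM in the Z-hybrid library. The largest Smart-seq difference, of si:dkeyp-122d12.1, had the same direction by Quartz-seq at 12 dpf, with 0.54 and 0.88 TPM in the W-hybrid, against 4.88 TPM in the Z-hybrid.

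**Figure D2:**
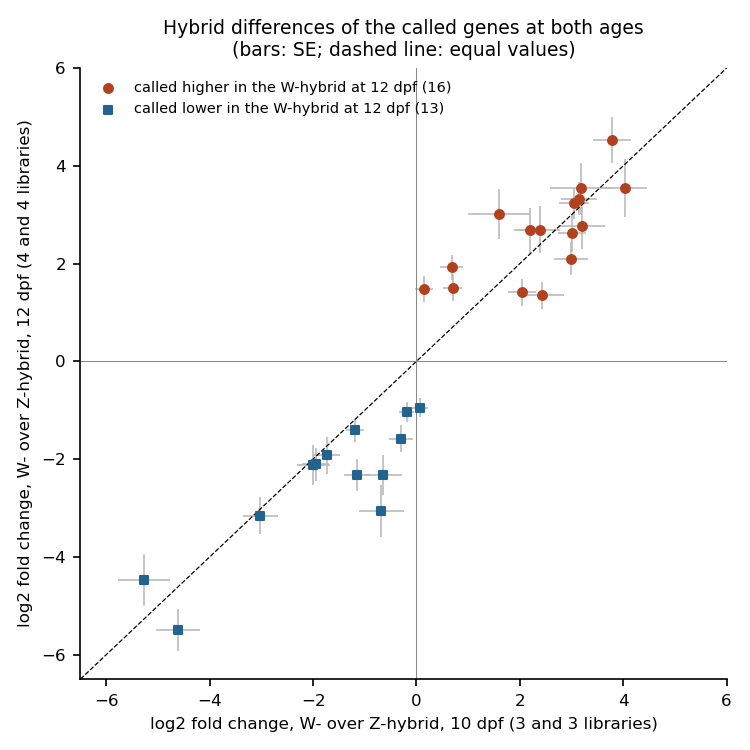
Log2 fold change (W- over Z-hybrid) of the 29 called genes at 12 dpf (vertical axis, 4 and 4 libraries) against 10 dpf (horizontal axis, 3 and 3 libraries), with SE bars and the line of equal values. The genes with the largest 12-dpf differences lie near the line, and several with smaller ones lie near 0 at 10 dpf.

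Most genes called at 10 dpf had small differences at 12 dpf. For the 615 genes called higher at 10 dpf, the median of the log2 fold changes was 0.03 at 12 dpf (0.75 at 10 dpf), and 323 of the 615 kept the direction. The 813 of the 819 lower genes that were tested at 12 dpf had a median of -0.07 there, and 471 kept the direction. Over all genes tested at 12 dpf 49.6% were above 0. These genes were chosen by their 10-dpf values, and such a choice by itself favours smaller differences in other libraries. The hybrid difference itself was compared between the ages by an interaction term over 21675 genes of the 14 Smart-seq libraries. It gave 0 genes with an adjusted p under 0.05, the smallest being 0.079, although 3726 genes (17.2%) had an unadjusted p under 0.05 and DESeq2 gave 506 genes. The count rested on one library, being 361 without Z-hybrid 12-dpf replicate 1.

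Meiotic stage was described by 5 lists of genes, 42 in all, and by their mean log2(TPM + 1), called the meiosis score here. The score was 5.63, 5.70, 5.33 and 5.44 in the W-hybrid libraries, and 5.13, 5.85, 5.50 and 6.46 in the Z-hybrid libraries. The W-hybrid libraries thus lay within 0.37 of each other, and the Z-hybrid libraries spread over 1.33, with replicate 1 below and replicates 2 and 4 above every W-hybrid library. The SD of the score was 0.171 in the W-hybrid and 0.566 in the Z-hybrid (n = 4 each), and the difference of the means, -0.21, was less than the spread among Z-hybrid libraries. The SD in the Z-hybrid was 0.362 without replicate 4 and 0.486 without replicate 1, still larger than in the W-hybrid. At 10 dpf the score was 5.05, 4.87 and 5.04 in the W-hybrid, and 5.47, 5.06 and 5.13 in the Z-hybrid.

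**Figure D3:**
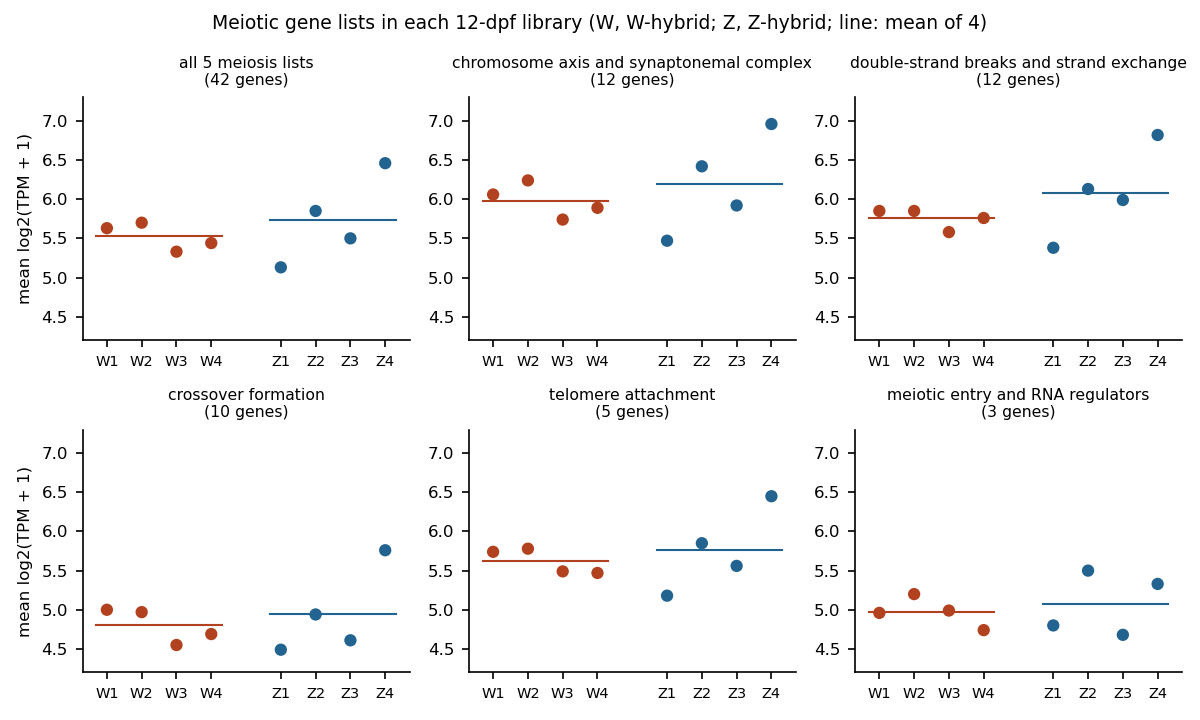
Mean log2(TPM + 1) of all 42 meiosis genes and of each of the 5 lists in the 12-dpf libraries (W1 to W4, W-hybrid; Z1 to Z4, Z-hybrid), with the mean of each hybrid as a line. Z-hybrid replicate 4 is the highest library and replicate 1 the lowest in the lists of axis, strand exchange, crossover and telomere genes.

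Over all genes the spread was close in both hybrids. Of the genes tested, 51.4% had the larger SD of log2(TPM + 1) in the Z-hybrid, and the biological coefficient of variation was 0.312 in the W-hybrid and 0.324 in the Z-hybrid. Of the 42 meiosis genes 35 had the larger SD in the Z-hybrid, and 32 had their highest value of the 8 libraries in Z-hybrid replicate 4 (13.7% over all genes). For 28 of them the lowest value of the 4 Z-hybrid libraries was in replicate 1, and the share over all genes was not counted. Other lists also had most members with the larger SD in the Z-hybrid. These were 13 of 13 early oocyte, 11 of 13 mitochondrially encoded, 16 of 20 muscle and 7 of 9 blood genes. The count was 35 of 56 for DNA replication, 25 of 49 for mitosis, 8 of 15 for germ cell identity and 6 of 17 for cell dissociation stress. A larger SD in the Z-hybrid was thus not particular to the meiosis genes. The difference in spread between the hybrids was not tested.

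Between the hybrids, 40 of the 42 meiosis genes had a log2 fold change below 0 and 2 above, with a median of -0.37 as against 0.0 over all genes, and 0 were called by edgeR. The unadjusted p was under 0.05 for 7 of them, all lower in the W-hybrid, as for 4.57% of all genes tested. The smallest adjusted p was 0.213, of rec114. This direction rested largely on a single library: without Z-hybrid replicate 4, 27 genes were below and 15 above 0, the median was -0.14, and the score difference was 0.03. Leaving out any one of the other 7 libraries left 38 to 41 genes below 0.

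The axis and synaptonemal complex list showed the pattern gene by gene. SYCP3, of the lateral elements of the synaptonemal complex, had 182, 313, 159 and 175 TPM in W-hybrid libraries, and 92.7, 303, 241 and 500.0 TPM in Z-hybrid libraries (log2 fold change -0.50 ± 0.425, adjusted p 0.719). SYCP1, the transverse filament that joins the homologues, had 113, 73.8, 79.2 and 103 TPM in W-hybrid libraries, and 49.4, 59.5, 75.0 and 222 TPM in Z-hybrid libraries (log2 fold change -0.13 ± 0.351, adjusted p 0.922). Both genes ran through the range of the W-hybrid libraries and beyond it on either side in the Z-hybrid. The cohesin gene rec8b had 8.33, 9.99, 6.58 and 6.92 TPM in W-hybrid libraries, and 5.47, 16.5, 13.2 and 30.0 TPM in Z-hybrid libraries, with a log2 fold change of -1.10 ± 0.366 and an adjusted p of 0.380 that was 0.0401 without Z-hybrid replicate 1. The meiotic cohesin gene stag3 behaved otherwise, at 27.1, 27.6, 10.5 and 10.4 TPM in W-hybrid libraries and 28.9, 36.2, 7.54 and 31.9 TPM in Z-hybrid libraries, so that its low values were shared by both hybrids. HORMAD1, an axis protein, varied less, from 411 to 543 TPM in W-hybrid libraries and from 445 to 723.5 TPM in Z-hybrid libraries.

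MEIOB, DMC1 and MCMDC2 had the largest pooled SD of the list of DNA breaks and strand exchange, and their wider ranges lay in the Z-hybrid. MEIOB, which binds single-stranded DNA at meiotic breaks, had 64.8, 84.2, 51.1 and 48.1 TPM in W-hybrid libraries, and 10.9, 82.1, 71.0 and 264 TPM in Z-hybrid libraries. Its highest library had 1.75 times its lowest in the W-hybrid and 24.3 times in the Z-hybrid. DMC1, the meiotic recombinase, had 106, 131, 92.0 and 106 TPM in W-hybrid libraries, and 39.5, 109, 141 and 351 TPM in Z-hybrid libraries, ratios of 1.43 and 8.89 between the highest and the lowest library. The fold changes of MEIOB (-0.76 ± 0.727 on the log2 scale, adjusted p 0.752) and DMC1 (-0.61 ± 0.525, adjusted p 0.723) were close to their SE in size, and became 0.10 and 0.05 without Z-hybrid replicate 4. MCMDC2, a helicase-like protein of meiotic repair, had 27.6, 33.4, 25.4 and 17.2 TPM in W-hybrid libraries, and 20.8, 39.3, 28.4 and 98.3 TPM in Z-hybrid libraries.

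The genes of crossovers and of telomere attachment described here also had their highest value in Z-hybrid replicate 4. TEX11, needed for crossovers in mammals, had 34.2, 54.7, 28.4 and 24.7 TPM in W-hybrid libraries, and 20.3, 55.1, 29.5 and 96.5 TPM in Z-hybrid libraries. The crossover proteins MSH4 and MSH5 had 8.80 to 19.4 and 11.3 to 18.9 TPM in W-hybrid libraries, and 7.67 to 30.6 and 7.5 to 36.9 TPM in Z-hybrid libraries. Among genes that attach telomeres to the nuclear envelope, terb2 had 61.7, 83.9, 58.1 and 54.3 TPM in W-hybrid libraries, and 27.0, 47.4, 66.0 and 181 TPM in Z-hybrid libraries (log2 fold change -0.36 ± 0.465, adjusted p 0.816; 0.35 without Z-hybrid replicate 4). SPDYA, a kinase activator at meiotic telomeres, had 163, 221, 128 and 150.3 TPM in W-hybrid libraries, and 82.0, 255, 178 and 454 TPM in Z-hybrid libraries. MAJIN, their membrane anchor, was narrower, at 88.8 to 167 TPM in W-hybrid libraries and 119 to 258 TPM in Z-hybrid libraries.

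The list of meiotic entry and RNA regulators had another order. The gene moto, the zebrafish Meioc gene, had 57.0, 49.7, 41.6 and 53.6 TPM in W-hybrid libraries, and 43.9, 111.5, 46.7 and 73.3 TPM in Z-hybrid libraries, so that replicate 2 and not replicate 4 was the highest (log2 fold change -0.54 ± 0.263, adjusted p 0.527). RBM46, an RNA-binding protein needed for meiosis in the mouse, had 170, 145, 127 and 171 TPM in W-hybrid libraries, and 124, 236, 164 and 253 TPM in Z-hybrid libraries. Of the other genes that the study examined by in situ hybridization, spinb had a log2 fold change of 0.17 ± 0.181, CENPX of 0.05 ± 0.186, tsga10 of -0.05 ± 0.291 and RAD51B of -0.23 ± 0.213, with adjusted p of 0.766, 0.946, 0.966 and 0.736. CENPX was the highest of these at 598 to 938 TPM in W-hybrid libraries and 578 to 787 TPM in Z-hybrid libraries.

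Some genes of earlier and later germ cell stages placed the Z-hybrid libraries apart from each other in more than one way. The gene nanos2, which marks germline stem cells in zebrafish, had 31.4, 22.1, 26.2 and 15.8 TPM in W-hybrid libraries, and 37.6, 2.07, 8.87 and 7.47 TPM in Z-hybrid libraries. It was highest of all in Z-hybrid replicate 1, the library with the lowest meiosis score, and below every W-hybrid library in the other 3. NANOS3, needed to maintain germ cells, had 15.9, 18.1, 21.8 and 17.5 TPM in W-hybrid libraries, and 24.6, 4.91, 9.89 and 12.7 TPM in Z-hybrid libraries, the same split. LIN28A (ENSDARG00000016999) did not share it in full, at 5.44, 6.69, 11.2 and 6.23 TPM in W-hybrid libraries, and 6.35, 1.95, 5.22 and 5.27 TPM in Z-hybrid libraries. It was highest in W-hybrid replicate 3, with Z-hybrid replicates 2 to 4 below every W-hybrid library. Of the 16 list members 8 had the larger SD in the Z-hybrid, against 51.4% of all genes tested. Over the 15 tested members of the gonocyte and spermatogonial list 11 were above 0 and 4 below, with a median log2 fold change of 0.46; 0 were called, the smallest adjusted p was 0.328, and 1 had an unadjusted p under 0.05. The list's direction was kept without any one of the 8 libraries, with medians of 0.27 to 0.54 over 15 or 16 genes tested.

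**Figure D4:**
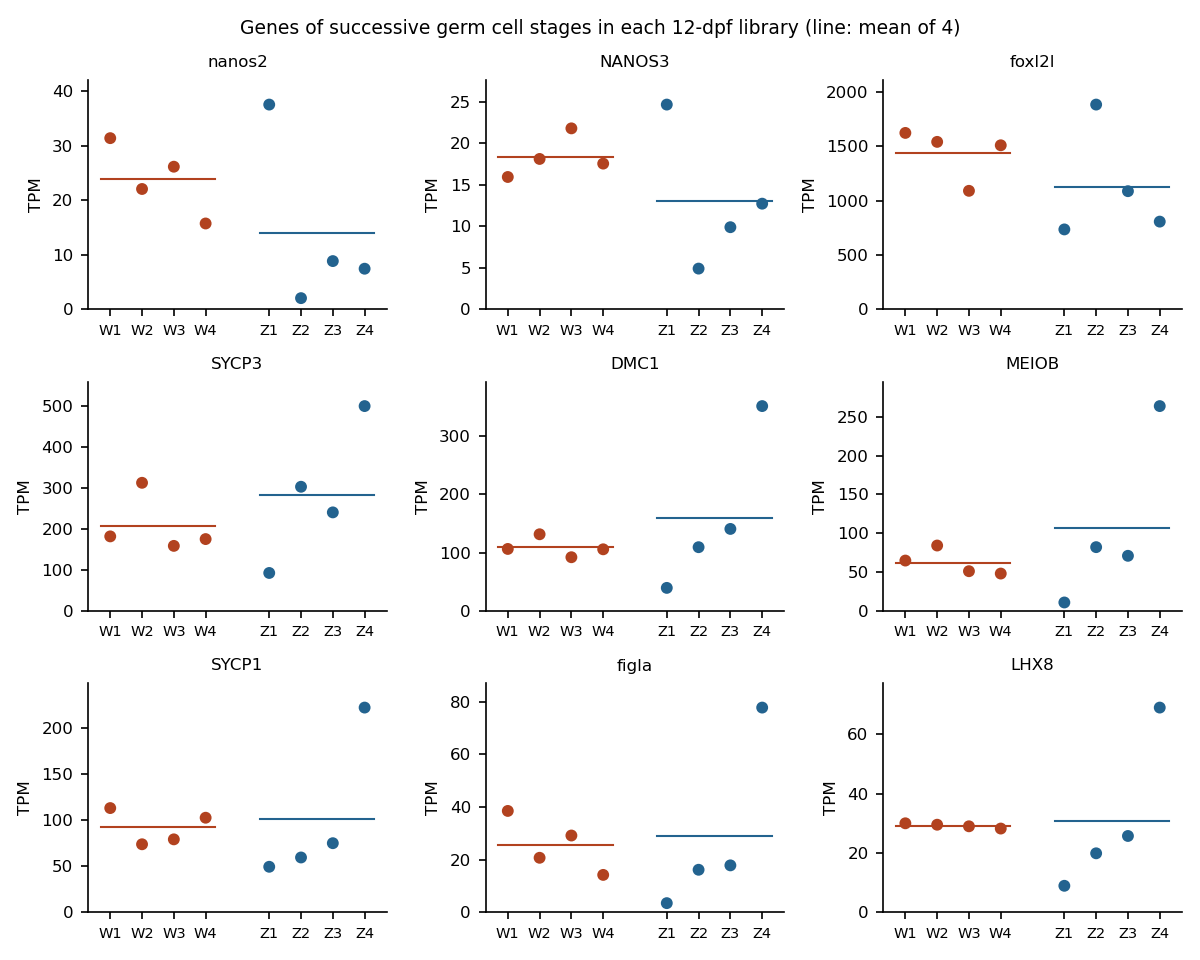
TPM in each 12-dpf library of genes of gonocytes (nanos2, NANOS3), of germ cells committed to oogenesis (foxl2l), of meiosis (SYCP3, DMC1, MEIOB, SYCP1) and of early oocytes (figla, LHX8), with the mean of each hybrid as a line. In all 9 panels the W-hybrid libraries lie within the range of the Z-hybrid libraries, and Z1 is highest for nanos2, Z2 for foxl2l and Z4 for the meiotic and oocyte genes.

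Oocyte genes followed in another order. The transcription factor gene figla had 38.5, 20.7, 29.2 and 14.2 TPM in W-hybrid libraries, and 3.52, 16.2, 17.9 and 77.8 TPM in Z-hybrid libraries. LHX8, also an oocyte transcription factor, was nearly level in the W-hybrid at 30.0, 29.5, 29.0 and 28.2 TPM, and ranged over 8.97, 19.9, 25.8 and 69.0 TPM in the Z-hybrid. The gene buc, of the Balbiani body of the oocyte, had 30.2, 19.7, 24.6 and 19.1 TPM in W-hybrid libraries, and 12.6, 10.2, 13.7 and 39.8 TPM in Z-hybrid libraries. Each of these 3 genes was highest of all 8 libraries in Z-hybrid replicate 4, and the other 3 Z-hybrid libraries were below every W-hybrid library for LHX8 and buc. The forkhead gene foxl2l, of germ cells that take the female path in fish and singled out after its values were seen, was the most abundant of the list at 1623, 1541, 1091 and 1509 TPM in W-hybrid libraries, and 736, 1884, 1087 and 807 TPM in Z-hybrid libraries. It was highest in Z-hybrid replicate 2, where nanos2 was lowest, and low in replicate 4. The early oocyte list had 12 tested genes with a median log2 fold change of 0.02, of which edgeR called 0, none with an unadjusted p under 0.05. With all libraries 7 genes were above 0 and 5 below; without Z-hybrid replicate 4 there were 10 above and 2 below, with a median of 0.39, and with the meiosis score as a covariate 11 above and 1 below, with a median of 0.31.

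Germ cell identity genes as a list ranged less than the meiosis score and the gonocyte and early oocyte lists in the Z-hybrid, but not in the W-hybrid. The list of 15 genes had a mean log2(TPM + 1) of 7.31 to 7.68 in the W-hybrid and 7.13 to 7.69 in the Z-hybrid, and a median log2 fold change of 0.06 with 0 genes called. PIWIL2, a piRNA pathway protein, had 292, 255, 311 and 152 TPM in W-hybrid libraries, and 341, 217.5, 145.5 and 245 TPM in Z-hybrid libraries. The germ plasm gene DND1 had 263, 237, 260.2 and 183 TPM in W-hybrid libraries, and 280.2, 117, 165 and 229 TPM in Z-hybrid libraries.

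Genes outside the lists moved with the meiosis score among the libraries of a hybrid. Over the 8 libraries, after the hybrid means were taken out, 15 of 346 genes with a mean above 20 TPM and an SD of at least 0.5 had a Pearson correlation above 0.9 with the score, and 0 had one below -0.9. These correlations are descriptions over 8 points that share libraries and depth with the score. The score varied more in the Z-hybrid (SD 0.566, against 0.171 in the W-hybrid), whose libraries therefore weigh more in them. Within the W-hybrid alone, r was 0.414 to 0.988 for the 10 highest. The highest was MINDY3, a deubiquitinase (r = 0.990), with 71.2, 80.6, 57.1 and 63.6 TPM in W-hybrid libraries and 48.6, 112, 67.6 and 172 TPM in Z-hybrid libraries. The meiosis gene m1ap (r = 0.949) had 36.1, 36.3, 27.4 and 23.7 TPM in W-hybrid libraries and 23.0, 33.1, 28.1 and 74.9 TPM in Z-hybrid libraries. PARP2, an enzyme of DNA strand break repair (r = 0.932), had 46.5, 67.1, 37.6 and 41.5 TPM in W-hybrid libraries and 36.8, 81.9, 52.9 and 101 TPM in Z-hybrid libraries. The testis-expressed gene zte38 (r = 0.932) had the widest range of the 10 highest, at 86.7, 116, 70.4 and 58.5 TPM in W-hybrid libraries and 26.5, 94.0, 108 and 336 TPM in Z-hybrid libraries. The other genes of the 10 highest were si:ch211-10a23.2, si:dkey-186j8.2, mettl27, si:dkeyp-79c2.1, si:ch211-277c7.7 and zgc:195212.

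Inverse relations were looser. The lowest was ACTA1, an actin of muscle (r = -0.826), with 34.9, 27.2, 25.1 and 32.6 TPM in W-hybrid libraries and 26.7, 21.3, 20.9 and 6.82 TPM in Z-hybrid libraries. DNMT3B, a de novo DNA methyltransferase (r = -0.679), had 33.8, 32.5, 62.1 and 25.4 TPM in W-hybrid libraries and 64.0, 15.99, 25.6 and 20.9 TPM in Z-hybrid libraries, highest in replicate 1 of the Z-hybrid and replicate 3 of the W-hybrid, the libraries of lowest score in each. The interferon-inducible gene ifi27.6 (r = -0.758) had 39.9 TPM in that W-hybrid library and 24.5 to 27.7 TPM in the other 3, and 10.9 to 28.9 TPM in the Z-hybrid. The gene si:dkey-65l23.1 (r = -0.666) had its highest W-hybrid value in replicate 2, at 48.2, 75.5, 45.3 and 62.3 TPM in W-hybrid libraries and 30.3, 31.5, 23.5 and 8.61 TPM in Z-hybrid libraries. The splicing factor SRSF1 (r = -0.636) and the glycolytic enzyme ENO1 (r = -0.657) also had their highest W-hybrid value in replicate 3, at 159 and 90.7 TPM. The other genes of the 10 lowest were ENSDARG00000080329, si:dkey-29j8.4, rdh12l and MSN, of which rdh12l had its highest W-hybrid value in replicate 1. Within the W-hybrid alone, r was above 0 for ACTA1 (0.34), si:dkey-65l23.1 (0.559) and si:dkey-29j8.4 (0.172). It was below 0 for the rest of the 10 lowest.

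With the meiosis score as a covariate, 15 of the 16 higher and 10 of the 13 lower genes were called, EML1 being lost among the higher and SCAMP2, zgc:153116 and ms4a17a.9 among the lower. The totals were then 17 higher and 10 lower. The log2 fold change of si:dkeyp-122d12.1 was -5.28 and that of ENSDARG00000101254 was 4.86 in this fit. The median of the 42 meiosis genes, from which the score was made, was -0.06.

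The DNA replication list held 1 called gene of 56, and its namesake had a log2 fold change of the other sign. Of the 2 genes with the symbol RRM2, the small subunit of the enzyme that makes deoxyribonucleotides, ENSDARG00000078069 had 116, 158, 75.7 and 126 TPM in the W-hybrid, against 20.9, 42.4, 27.8 and 44.9 TPM in the Z-hybrid (2.78-fold higher, log2 fold change 1.48 ± 0.261, adjusted p 0.0195). ENSDARG00000020711 had 80.8, 107, 49.1 and 45.1 TPM in the W-hybrid, against 106.0, 210, 119 and 119 TPM in the Z-hybrid (log2 fold change -1.09 ± 0.304, adjusted p 0.260 by edgeR, 0.0492 by DESeq2). At 10 dpf ENSDARG00000078069 had 72.6, 118 and 134 TPM in W-hybrid libraries, and 86.2, 134 and 106 TPM in Z-hybrid libraries, with no call (log2 fold change 0.14 ± 0.175), while ENSDARG00000020711 was called higher in the W-hybrid, at 114, 69.6 and 80.6 TPM against 49.4, 42.2 and 48.2 TPM in the Z-hybrid (log2 fold change 1.27 ± 0.160, adjusted p 1.89e-04). The interaction of hybrid and age was 1.31 for ENSDARG00000078069 and -2.38 for ENSDARG00000020711 on the log2 scale, with adjusted p of 0.144 and 0.106 by edgeR that miss the threshold. Related genes can share reads, and the split between these 2 genes depends on the authors' counting. The call of ENSDARG00000078069 was kept in 5 of the 8 fits that leave out one library, and was lost without W-hybrid replicate 2 or 4 or Z-hybrid replicate 3. Over the list 21 genes were above 0 and 35 below, with a median of -0.08.

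**Figure D5:**
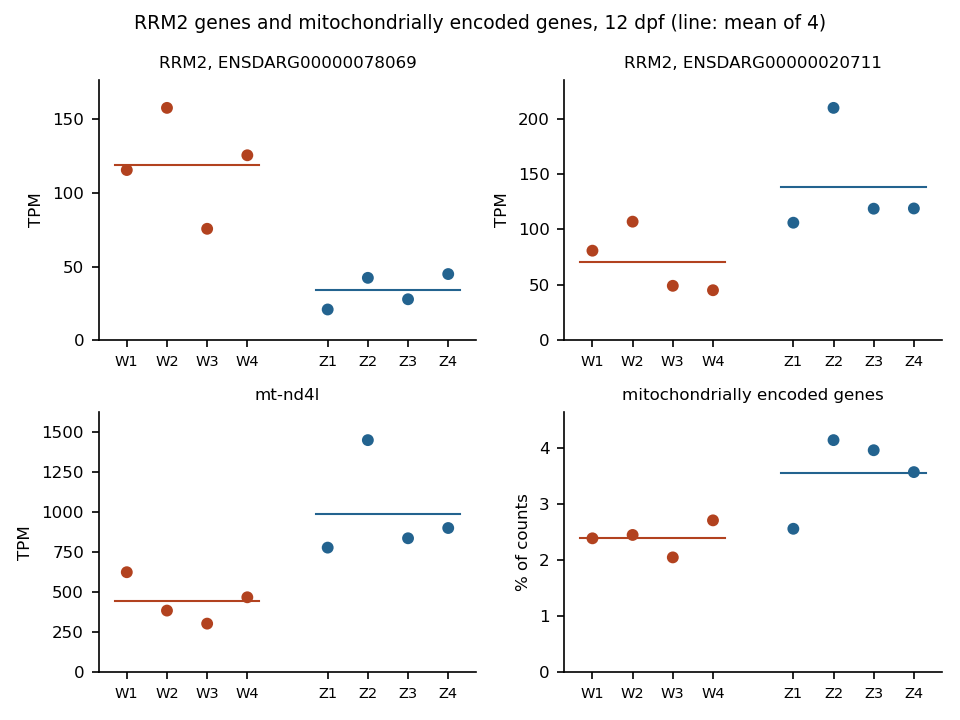
TPM in each 12-dpf library of the 2 RRM2 genes and mt-nd4l, and the percent of counts in the 13 mitochondrially encoded genes, with the mean of each hybrid as a line. The RRM2 genes have log2 fold changes of opposite sign, and Z1 lies beside the W-hybrid libraries in the mitochondrial share, at 2.56%.

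No gene of the mitosis list was called. Of the 49 mitosis genes 15 were above 0 and 34 below, with a median log2 fold change of -0.07, 0 called and 1 with an unadjusted p under 0.05. This split turned to 28 above and 21 below with library size alone as the scaling, to 27 and 22 with the meiosis score as a covariate or without W-hybrid replicate 3, and to 32 and 17 without Z-hybrid replicate 2, with medians of 0.02, 0.01, 0.02 and 0.08. The list's mean log2(TPM + 1) was 5.85 to 6.14 in the W-hybrid and 5.69 to 6.19 in the Z-hybrid. The kinesin genes kif20a and kif2c had their highest value in W-hybrid replicate 1, at 42.6 and 98.5 TPM. The replication helicase subunit MCM7 varied within both hybrids, at 247, 196, 179 and 102 TPM in W-hybrid libraries and 273, 184, 54.1 and 104 TPM in Z-hybrid libraries.

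Transcripts made in the mitochondrion had fold changes below 0 as a list. All 13 mitochondrially encoded genes had a log2 fold change below 0, with a median of -0.66 (0.0 over all genes), and 11 had an unadjusted p under 0.05, but 0 passed the adjusted threshold, the smallest adjusted p being 0.0554. With library size alone as the scaling 12 of the 13 were below 0, with a median of -0.57, and without one library the median ranged from -0.46 (without Z-hybrid replicate 2) to -0.76 (without Z-hybrid replicate 1). That smallest value belonged to mt-nd4l, a subunit of respiratory complex I, with 626, 386, 305 and 469 TPM in W-hybrid libraries, and 779, 1451, 838 and 902 TPM in Z-hybrid libraries (log2 fold change -1.25 ± 0.254). It had an adjusted p of 0.00207 by DESeq2. Together the 13 genes took 2.39, 2.45, 2.05 and 2.71% of the counts in the W-hybrid, and 2.56, 4.14, 3.96 and 3.57% in the Z-hybrid. Replicate 1 of the Z-hybrid lay within the W-hybrid range, and replicate 2, which had the fewest genes with at least 10 counts (18761), had the largest share. Replicate 3 of the Z-hybrid, with a share of 3.96%, had 20010 such genes, within the 19761 to 20298 of the W-hybrid. The part of the number of genes detected and of the mitochondrial share in the result was not tested. The 13 genes are transcribed as units from 1 small genome and are not 13 independent measurements.

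Markers of other cell types had small shares of the counts in both hybrids. The 20 muscle genes took 0.0220 to 0.0274% of the counts in the W-hybrid and 0.0180 to 0.0355% in the Z-hybrid, with 0 called, and 0.0127 and 0.534% in the 2 trunk libraries, so that the germ cell shares were above the lower trunk value. TNNC2, a troponin of fast muscle, had 62.1, 77.0, 59.8 and 58.3 TPM in W-hybrid libraries, and 31.0, 23.8, 53.1 and 112.8 TPM in Z-hybrid libraries. Among them NEB, a giant protein of muscle thin filaments, had 37.1, 10.8, 14.3 and 14.9 TPM in W-hybrid libraries, and 15.2, 37.8, 32.7 and 98.5 TPM in Z-hybrid libraries, highest in the library with the highest meiosis score. In the list of 18 pancreas and gut genes, which took at most 0.00645% of the counts, the insulin gene ins had 26.5, 23.3, 32.1 and 31.0 TPM in W-hybrid libraries, and 21.2, 12.3, 6.18 and 9.74 TPM in Z-hybrid libraries. Of the 12 tested in that list 7 were above 0 and 5 below, with a median of 0.44 and 0 called. The unadjusted p was under 0.05 for 3 higher and 1 lower, and without one library the median ranged from 0.12 to 0.53. For the epidermis gene icn, Z-hybrid replicate 3 reached 46.5 TPM, a level above the 1.91 to 7.0 TPM of the W-hybrid libraries and the 1.28 to 5.38 TPM of the other 3 Z-hybrid libraries. The 9 blood genes took 0.0036 to 0.0054% of the counts in the W-hybrid and 0.00404 to 0.0051% in the Z-hybrid, as against 0.116 and 0.264% in trunk; of the 6 tested, 4 were above 0 and 2 below, the median was 0.36 and 0 were called (smallest adjusted p 0.602), and without one library the median ranged from -0.11 to 0.40. Of the 17 genes of cell dissociation stress 16 were tested, with a median of 0.15 and 0 called, and the median ranged from -0.04 to 0.25 without one library. Leaving out a library also changed which genes were tested, up to 8 for blood, 14 for pancreas and gut and 17 for stress. These medians are therefore not all over the same genes. With all 14 Smart-seq libraries in the fit they were -0.01, 0.18 and -0.01 in that order. ATF3, an early stress gene, had 8.22, 34.5, 20.3 and 15.3 TPM in W-hybrid libraries, and 9.88, 15.1, 4.92 and 10.5 TPM in Z-hybrid libraries.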

How the data were processed

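Germ cells of W- and Z-hybrid larvae were sorted by GFP and sequenced as bulk RNA. Per the labels, the authors aligned reads to GRCz11 with STAR 2.7.7a and quantified genes with RSEM 1.3.1. The deposited expected counts (32057 genes a library) were rounded to whole numbers, and the deposited TPM values were used for levels, as log2(TPM + 1) in scores. W- and Z-hybrid 12-dpf Smart-seq libraries (4 each) were compared with edgeR 4.0.16 (R 4.3.3). The settings were filterByExpr, TMM scaling, a robust quasi-likelihood fit and Benjamini-Hochberg adjustment. A call needed an adjusted p under 0.05, at least 1.5-fold and a mean above 5 TPM. Fold changes are those of the fit at its default prior count. The log2 CPM values, used for correlations and components, took a prior count of 2. The interaction of hybrid and age used all 14 Smart-seq libraries. DESeq2 1.42.0, other scalings and filters, a replicate block, the score as a covariate and each library left out were alternatives. The fit was tested on simulated data.

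Genes were named by rule, though not every list member it gives is described: all called genes, the study's in situ genes with sycp1 and sycp3, the called or otherwise the 3 most variable members of each list, and the 10 genes most and least correlated with the meiosis score. The members and the lists were chosen with earlier results of these data known. Counting intervals were not given for TPM values, which carry no depth of their own. A pooled count table of the series was not used. No 2 libraries agreed within sampling noise. Nothing says that the batches came from separate crosses. The result of 1 gene list is not reported here.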

Additional observations from a re-analysis of the deposited data

Results flagged for a closer look

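Of 134 sets of 4 libraries examined, 5 had a library far from the other 3, where chance alone marks about 1 in 20. In the W-hybrid, replicate 2 had 20 TPM of si:dkey-14d8.21, above 11.4 to 12.0 TPM in the other 3, and 313 TPM of SYCP3, above 159 to 182 TPM. In the Z-hybrid, replicate 4 had 85.2 TPM of si:ch211-262i1.2, above 22.8 to 31.6 TPM, and 222 TPM of SYCP1, above 49.4 to 75.0 TPM. Z-hybrid replicate 2 had 210 TPM (209.6) of the RRM2 gene ENSDARG00000020711, above 106.0 to 119 TPM in the other 3.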

How the results depend on the processing

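The genes called higher and lower numbered 60 and 40 with DESeq2, 31 and 20 with all 14 libraries in the fit, and 9 and 7 with at least 10 counts in every library, against 16 and 13; without one library they ranged from 11 to 28 and from 7 to 20. Counts at 10 dpf ranged from 477 to 2465 (1434 in all). The interaction gave 506 genes with DESeq2 and 0 to 361 without one library. The meiosis score difference moved from its value of -0.21 by less than the pooled SD of the 8 libraries under every alternative. It ranged from -0.41 to 0.03 without one library. No label says that the replicate numbers mark shared batches. Same-numbered deviations correlated at 0.11, 0.14, 0.07 and -0.02, and differently numbered ones at -0.18 to 0.18, which cannot settle whether they do. The replicate block gave 17 higher and 14 lower, of which 15 and 11 were shared.

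Genes without a call changed sign. With the score as a covariate, log2 fold changes were 0.08 for DMC1, 0.31 for MEIOB, 0.27 for terb2, 0.24 for tsga10, 0.01 for SYCP3, 0.35 for SYCP1 and 0.98 for figla. Under the block they were 0.00 for tsga10, 0.07 for SYCP1 and 0.38 for figla, and with library size alone 0.03 for tsga10. The score is made in part from DMC1, MEIOB, terb2, SYCP3 and SYCP1, so the fit with the score takes part of their own values out. Their change in that fit is therefore built in and is no separate result. The cause was otherwise not tested. Without one library the values ranged from -0.92 to 0.05 for DMC1, -1.12 to 0.10 for MEIOB, -0.64 to 0.35 for terb2, -0.25 to 0.31 for tsga10, -0.34 to 0.48 for SYCP1, -0.57 to 0.90 for figla and -0.09 to 0.15 for CENPX. Depth limits the genes of under 10 counts in one hybrid.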
